A study of Mus musculus with 8 samples.

Results

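The macrophages described here were grown from mouse bone marrow and left unstimulated, and their genes were ordered by how brightly the arrays measured them. Of the 8 arrays of the study, 2 held these cells. Control macrophages came from marrow cultured on a dish over 7 days with macrophage colony-stimulating factor (M-CSF) and then stayed in control medium. IL-4 macrophages were grown the same way and received interleukin-4 for 24 hours, and LPS macrophages received lipopolysaccharide, a bacterial cell wall product, for 24 hours. Colony cells came from marrow kept for 7 days on an endothelial monolayer in HSC media, without a label that names M-CSF. Each group had 2 samples, and all 8 came from mice that carry the CAG-DsRed*MST transgene, a red fluorescent reporter under the CAG promoter. Nothing in the labels ties the 2 samples of a group to different animals or cultures, so every p-value given here measures only the spread between these samples. The ages of the mice were not given in the sources used here.

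Marrow macrophages depend on M-CSF, whose receptor Csf1r keeps the cells alive and committed to the lineage. Resting macrophages are known for taking up debris, lipoproteins and old red cells, for breaking them down in lysosomes, and for storing or exporting the iron and cholesterol that come out. They also carry the receptors with which they sense microbes and antibody-coated particles, while most inflammatory cytokines are made only after a stimulus.

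Levels are log2 signals minus the 75th percentile of the array, so that 0 is the brightness of the 75th percentile and each unit is a 2-fold difference. A probe was ranked where the scanner software marked it well above background on both control arrays. This held for 33778 of 55681 probes. Among its ranked probes a gene took the one of highest mean over all 8 arrays, which gave 23316 ranked features. Of these, 15373 carried a gene symbol, out of 22221 symbols on the array (69.2%). Another 3511 were probes for long intergenic RNAs and 4432 had only a file name. Brightness also depends on how well each probe binds, so the order is one of signal and not of transcript number. The levels ran from 9.74 to -5.94 with a median of -0.39, and 1789 features lay above 5. Both arrays gave nearly the same picture: the median absolute difference between them was 0.140 over all ranked features and 0.0795 over the highest 100, and 157 features (0.673%) were more than 1 apart. Of the highest 100 by mean, 92 were among the highest 100 on each array. The last features inside that line, Lyz2 and Fabp5, averaged 8.36 each, and the first outside it, NAP093810-001 and LOC100048345, averaged 8.36 and 8.35, so its position is arbitrary.

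**Figure D1:**
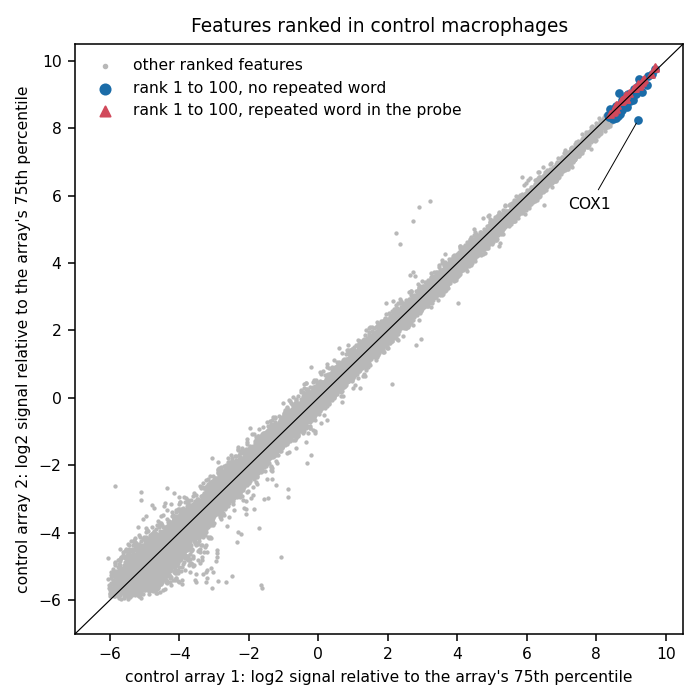
Level on control array 2 against control array 1, each axis in log2 signal relative to the array's 75th percentile, for the 23316 ranked features. The features lie along the line of equality, with a median absolute difference of 0.140, and the highest 100 lie above 8.36 on average.

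Apoe, which codes for the lipoprotein apolipoprotein E, was the brightest gene whose probe held no sequence repeated at other genes. It measured 9.70 and 9.77 on the 2 control arrays, or 411636 and 420158 intensity units. The ferritin chains that store iron were close to it. Fth1, the heavy chain, measured 9.60 and 9.60, and Ftl1, the light chain, 9.31 and 9.39. The cytoskeletal genes Actb (9.48 and 9.54) and Tmsb4x (9.15 and 9.01, the actin-binding peptide thymosin beta-4) and the growth-related gene Tpt1 (9.46 and 9.29) were in the same range. Apoe lay above Fth1, and Fth1 above Actb, on both arrays, whereas the values of Tpt1 and Ftl1 overlapped and have no order.

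The lysosome gave the next set of bright genes. Ctsd, the aspartic protease cathepsin D, measured 9.27 and 9.31. The cysteine proteases Ctsb (9.10 and 9.17) and Ctss (8.85 and 8.88) followed. Psap (8.90 and 8.99), whose product is cut into activators of lipid-degrading enzymes, and the membrane protein gene Lamp1 (8.83 and 8.89) were of like brightness. Csf1r measured 9.19 and 9.24, and Mpeg1, which codes for the pore-forming protein perforin-2, averaged 9.01 over both arrays. Selenop, which codes for the secreted selenoprotein P, measured 8.75 and 8.84, and Lgals3, which codes for galectin-3, 8.84 and 8.90. The remaining 8 of the 23 such genes were Rpl10, Fau, Rps14 and Rpl37a of the ribosome, Actg1, the cyclophilin gene Ppia, the predicted gene Gm9843 and the zinc finger gene Zfp628. Zfp628 had a second probe at 0.84, against 9.28 and 9.38 for the first, and Tmsb4x a second probe at -0.66, so these places rest on 1 probe each. Other probes were also dimmer for Mpeg1 (3.86), Csf1r (6.33 and 4.67) and Ctsd (6.95), all of them well above background. The rank of a gene is that of the 1 probe chosen for it. Ferritin, actin and ribosomal genes have many near-identical copies in the genome, and Lyz1 and Lyz2 are close paralogs, so their probes may bind RNA of more than 1 gene.

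For the other 17 of the 40 brightest genes with a symbol, whether the rank can be read as that of the gene named was not tested. Their probes held a repeated sequence. A probe was counted so where any of its 20-base words stood in the promoter windows (250 bases before to 50 after the start, RefSeq, both strands) of at least 3 other genes. This feature was noticed after the levels had been seen. It held for 27 of the highest 100 features, against 469 of 23316 ranked features (2.01%) and 559 of 55681 probes (1.00%). The share was 10.4% over the highest 1000. Of these 27, 19 had another probe for the same gene that was well above background, which lay a median of 6.16 lower (1.18 to 13.63). For another 2 no other probe was above background. Among the other 73 features, 24 had another probe, and the median gap was 0.80 (-0.0023 to 11.28). Over all 9204 ranked features with another probe, above background or not, the median gap was 2.10.

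Many of the 27 shared a word of 16 bases with others, and Slc10a1, Ttc38, Rn4.5s, 2610028H24Rik, Bpifc and Hccs were in none of these families. For some families 30 bases of the 60-base probes are given here because they carry that finding. Capitals mark the shared word, coordinates are those of the whole probe on build mm9 as the array files give them, and sequences run 5′ to 3′. Exons are not named, for want of gene models on mm9. The first word, CTGAAGACAGCTACAG, stood in the probes of 7 of the 27 features (BC028528, Fam177a2, Medag, Pbld1, Phyhd1, Pirb and Synrg). On the array it stood in 11 probes, of which 10 were ranked, at levels of 8.20 to 9.14 with a median of 8.76. Their probes for Pirb (chr7:3663046-3663105, minus strand), Synrg (chr11:83855517-83855576, plus) and Fam177a2 (chr12:56243005-56243064, plus) read in part:
Pirb: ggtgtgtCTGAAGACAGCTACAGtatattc
Synrg: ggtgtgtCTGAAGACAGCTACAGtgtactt
Fam177a2: ctggtgtCTGAAGACAGCTACAGtgttctt
These genes lie on different chromosomes and code for an inhibitory receptor of myeloid cells, an adaptor of vesicle transport and an uncharacterised protein. Pirb measured 9.09 and 9.19, Synrg 8.93 and 9.03, and Fam177a2 8.85 and 8.88. Their next probes, without a repeated word, averaged 7.70 for Pirb, 3.21 for Synrg and 0.76 for Fam177a2.

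A second word, AGGACAGCCAGGGCTA, stood in the probes of Cxcl11, Elk1, Glrx2, Kctd14, Med16 and Ndor1. All 7 probes that held it were ranked, with a median of 9.26 (6.83 to 9.74), and they include the brightest feature of all. The probes shown are those of Glrx2 (chr1:145596708-145596767, plus), Kctd14 (chr7:104606896-104606955, plus) and Elk1 (chrX:20510521-20510580, minus):
Glrx2: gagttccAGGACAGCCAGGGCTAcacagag
Kctd14: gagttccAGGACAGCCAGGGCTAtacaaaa
Elk1: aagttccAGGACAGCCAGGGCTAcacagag
Glrx2, a mitochondrial glutaredoxin gene, measured 9.68 and 9.80 with this probe, while its next probe averaged 2.56. Kctd14 measured 9.69 and 9.78, with the next probe 13.63 lower, and Elk1, a transcription factor gene, 9.37 and 9.47, with the next probe 11.89 lower. Cxcl11, a chemokine gene, measured 8.85 and 8.98 with such a probe, 4.75 above its other one.

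Another family had runs of GT. The word GTGTGTGTGTGTGTGT stood in 71 probes, 70 of them ranked, with a median of 7.10, and in those of Dennd4a, Luc7l2, Sp110 and Spag7 among the highest 100. Dennd4a (chr9:64659886-64659945, plus) measured 8.55 and 8.57, and Sp110 (chr1:87473677-87473736, minus) 8.52 and 8.51. The probes of Exosc2 (chr2:31536706-31536765, plus) and Milr1 (chr11:106628762-106628821, plus) shared a further word, at 9.35 and 9.44 for Exosc2 and 9.24 and 9.32 for Milr1. For comparison, the whole probes of Apoe (chr7:20281732-20281791, minus) and Lyz2 (chr10:116719175-116719234, minus) held none:
Sp110: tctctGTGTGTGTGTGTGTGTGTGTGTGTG
Exosc2: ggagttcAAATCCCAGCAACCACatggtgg
Milr1: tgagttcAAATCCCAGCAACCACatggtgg
Apoe: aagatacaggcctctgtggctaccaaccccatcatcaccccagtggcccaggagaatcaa
Lyz2: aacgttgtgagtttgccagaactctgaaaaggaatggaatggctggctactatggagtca
Searched on both strands of 32851 promoter windows, the first word stood in 0.143% of them, the second in 0.0700%, the GT word in 0.426% and the word of Exosc2 and Milr1 in 0.103%. A word of AGTGTACTCATATAAA, shared by 2 features without a gene name among the highest 100, stood in 0.0122%. Whether these probes bind RNA of many loci was not tested, and no annotation of repeats was at hand.

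**Figure D2:**
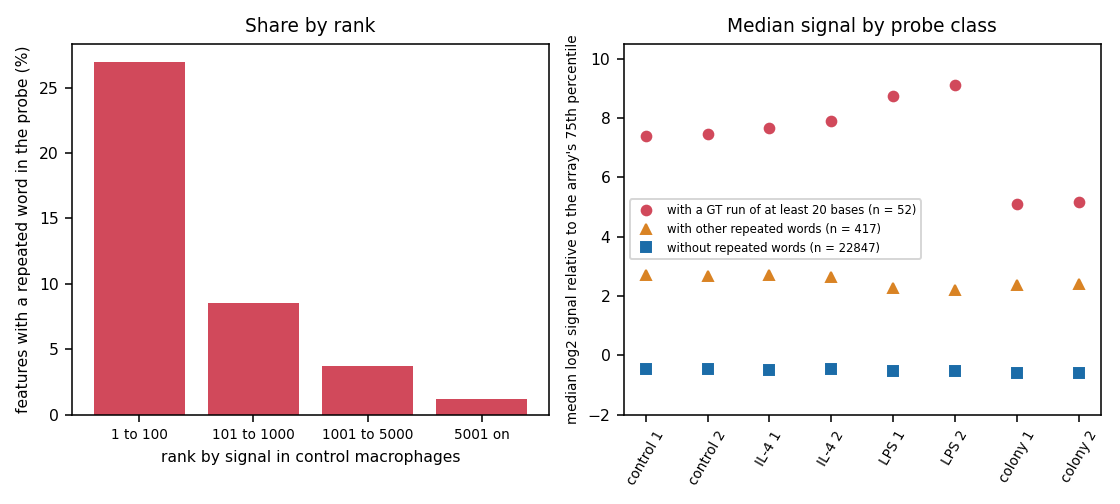
Share of features whose probe holds a repeated word by rank in control macrophages, and median level of probe classes in the 4 groups on the log2 scale relative to the 75th percentile. The share is 27% among the highest 100 and falls with each lower range of ranks, and GT runs are the class whose median differs most between groups.

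**Figure D3:**
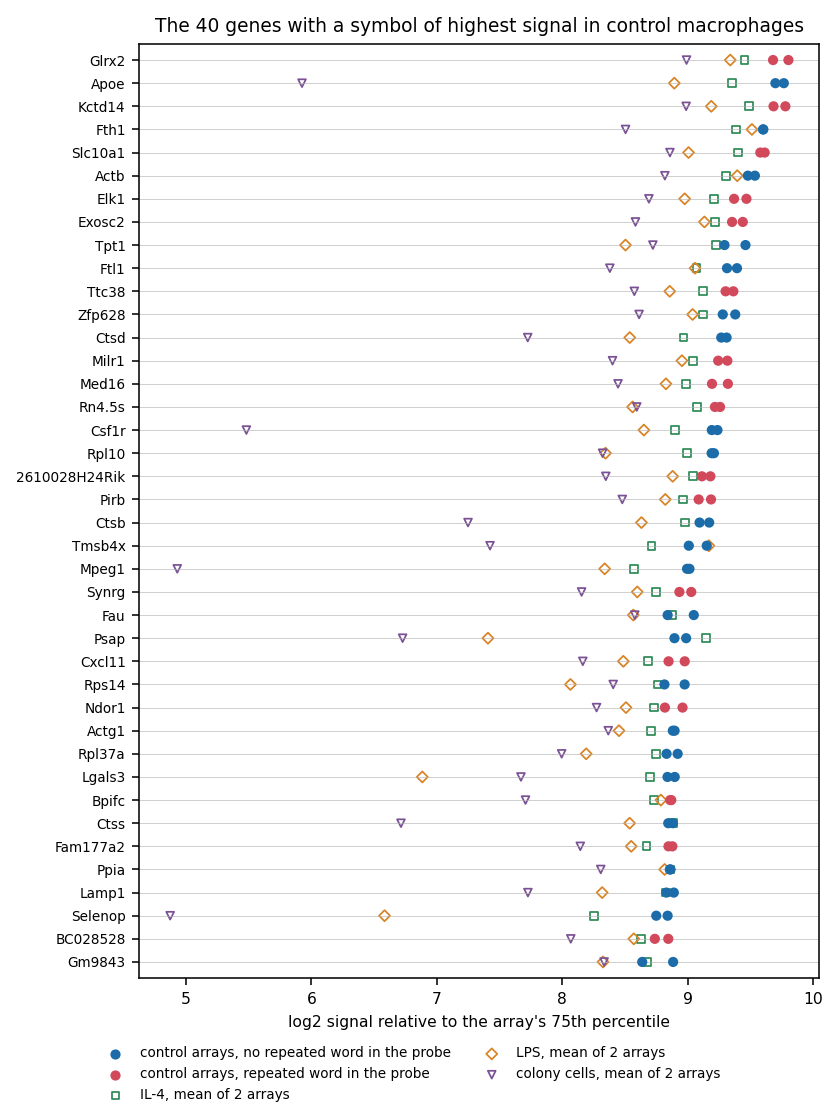
Levels of the 40 brightest genes with a symbol on the log2 scale relative to the 75th percentile, with both control arrays as filled points (17 genes with a repeated word in a second colour) and the means of the other groups as open symbols. Apoe, Csf1r, Mpeg1 and Selenop lie furthest from their colony cell means.

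Of 806 genes in 46 lists (28 of functions, 18 of cell type markers), 803 were on the array, 727 were ranked and 206 stood among the highest 1000, a line that takes in 4.29% of ranked features, while the highest 100 are 0.429% of them. In 17 of the 28 function lists every member on the array was ranked. The lists were checked first against the label. All 15 macrophage markers were ranked, with a median level of 6.06, and 5 of them stood among the highest 100: Csf1r, Mpeg1, Cd68 (8.57 and 8.51, a lysosomal glycoprotein), Tyrobp (8.55 and 8.40, a signalling adaptor) and Lyz2 (8.34 and 8.38, lysozyme). Adgre1, the F4/80 antigen, measured 7.02 and 7.11. The dimmest were Spi1 (1.03 and 1.28), the transcription factor PU.1, the fractalkine receptor gene Cx3cr1 (1.39 and 1.47) and the scavenger receptor gene Msr1 (1.72 and 1.55). Itgam, also on this list, was measured by a probe with a repeated word. Cd68 had a second probe at 5.41, and the dimmer probes of Csf1r and Mpeg1 are given above. The places of these genes among the highest 100 therefore rest on 1 probe each.

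Signalling by M-CSF and the lineage factors behind it made up a list of 31 genes, all of them ranked, with a median of 2.96 and 2 members among the highest 1000. Below Csf1r came Csf2ra (6.38 and 6.43) and Csf2rb (5.80 and 5.85), the chains of the GM-CSF receptor. The transcription factor genes Klf6 (6.01 and 5.92), Irf8 (5.75 and 5.71) and Maf (5.38 and 5.44) were the brightest of their kind. Il34, which codes for the other ligand of the receptor, was among the dimmest at -4.09 and -4.41. Among 12 regulators and surface markers of macrophages settled in tissues, 6 were ranked. Id3 (4.19 and 4.07), Nr1h3 (3.07 and 2.94, the sterol sensor LXR alpha) and Spic (1.59 and 1.41) were the highest. Gata6, Sall1, Timd4, Clec4f and Vsig4 were not well above background on either array, and Cd163 was on 1 array only.

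**Figure D4:**
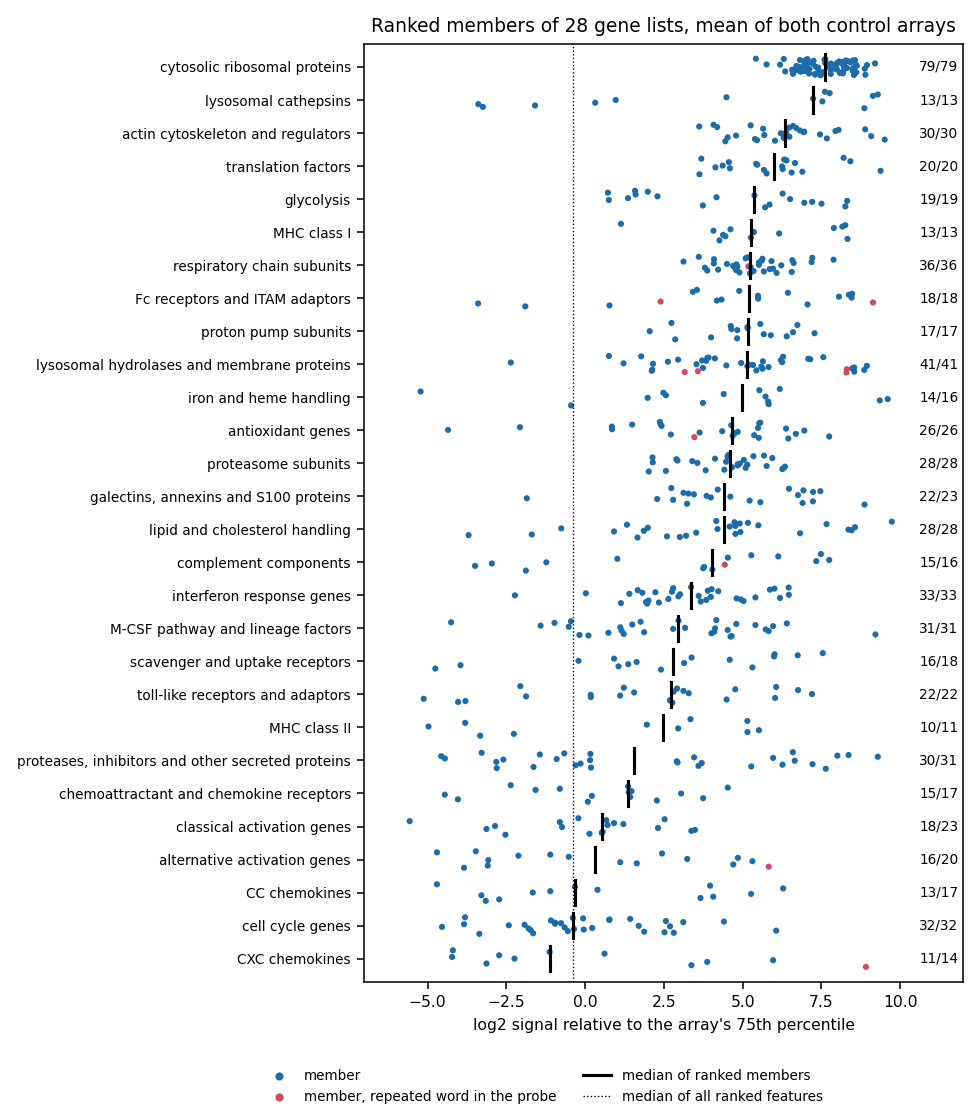
Mean level of each ranked member of 28 function lists in control macrophages, in log2 signal relative to the array's 75th percentile, with the list median as a bar, the median of all ranked features (-0.39) as a dotted line and ranked over measured members at the right. Ribosomal proteins and cathepsins have the highest medians, 7.63 and 7.24. The CXC chemokine list, which takes in the CX3C gene Cx3cl1, has the lowest, -1.13, the level of Cx3cl1.

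The degradative machinery was measured throughout. All 13 cathepsins were ranked, with a median of 7.24 and 7 among the highest 1000. After Ctsd, Ctsb and Ctss came Ctsz (7.74 and 7.79), Ctsl (7.67 and 7.56) and Ctsa (7.62 and 7.44). Ctse (-3.42 and -3.36), Ctsw and Ctso lay below the median of all features. All 41 hydrolases and membrane proteins of the lysosome were ranked, with a median of 5.15 and 13 among the highest 1000. Lgmn, which codes for the asparagine-specific protease legumain, measured 8.53 and 8.56, and the tetraspanin gene Cd63 8.49 and 8.47. Galns, Gla, Idua and Sgsh were measured by probes with repeated words. The 17 subunits of the proton pump that acidifies the lysosome were all ranked too, with a median of 5.16, from Atp6v0c (7.25 and 7.31) down to Atp6v1h (2.19 and 1.91).

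Iron and lipid handling each had a few very bright genes. In the iron list 14 of 16 were ranked, with a median of 4.97. Behind the ferritins came the phagosomal iron transporter gene Slc11a1 (6.20 and 6.15), the heme transporter gene Slc48a1 (5.86 and 5.79), the biliverdin reductase gene Blvrb (5.86 and 5.76) and Slc40a1 (5.78 and 5.68), which codes for the iron exporter ferroportin. Tfrc, the transferrin receptor gene, was among the dimmest at 1.94 and 2.03. Hamp, which codes for the hormone hepcidin, was not well above background. All 28 genes of lipid and cholesterol handling were ranked, with a median of 4.40. Gpnmb (8.53 and 8.60), Trem2 (8.50 and 8.42, a lipid-sensing receptor), Fabp5 (8.37 and 8.34, a fatty acid carrier), Lpl (7.62 and 7.71, lipoprotein lipase) and Plin2 (6.79 and 6.85, a lipid droplet coat protein) followed Apoe. Srebf1 (-1.59 and -1.79), which codes for a regulator of lipid synthesis, and Ch25h (-3.46 and -3.93), which codes for an enzyme that hydroxylates cholesterol, were among the dimmest.

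Genes for immune receptors and the adaptors that carry their signals were nearly all measured. All 18 Fc receptor and ITAM adaptor genes were ranked, with a median of 5.19. Fcer1g, the signalling chain shared by several Fc receptors, measured 8.37 and 8.37, Lilrb4a, an inhibitory receptor, 8.13 and 7.98, and Sirpa, the receptor for the "don't eat me" signal Cd47, 7.09 and 7.03. All 22 toll-like receptors and adaptors were ranked, with a median of 2.73. The chaperone gene Unc93b1 (7.27 and 7.13), Ly86 (6.76 and 6.76, also called MD-1), the LPS co-receptor gene Cd14 (6.12 and 6.01) and Tlr13 (6.01 and 6.06) led them. Tlr2 measured 4.79 and 4.74 and Tlr7 4.49 and 4.49, while Tlr11, Tlr12 and Tlr5 lay between -3.71 and -5.22. Among scavenger and uptake receptors and their bridging proteins 16 of 18 were ranked, with a median of 2.78. Gas6 (7.49 and 7.60), a bridging protein for dying cells, Stab1 (6.73 and 6.77), Cd5l (6.05 and 5.98) and Mfge8 (5.95 and 6.05) were the brightest. The mannose receptor gene Mrc1 measured 5.27 and 5.35 and Cd36 4.75 and 4.43.

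Complement was represented by 15 of 16 genes with a median of 4.04. The C1q chains C1qb (7.72 and 7.78), C1qc (7.47 and 7.50) and C1qa (6.15 and 6.11), which start the classical pathway, and Cfp (7.29 and 7.38), which codes for properdin, stood highest. C3, the central component, measured 5.21 and 5.34, and Cfd was not well above background. Antigen presentation takes a class I and a class II pathway. All 13 class I genes were ranked, with a median of 5.26 and 5 among the highest 1000, led by H2-D1 (8.26 and 8.40), B2m (8.27 and 8.25) and H2-K1 (8.23 and 8.10). Of 11 class II genes 10 were ranked, none of them among the highest 1000, with a median of 2.46. H2-Ab1 measured 5.49 and 5.55, H2-Eb1 5.24 and 5.07, and Cd74, the invariant chain, 5.08 and 5.22. Probes of histocompatibility genes may bind RNA of several of them.

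Chemokines were read against the 69.2% of all symbols that were ranked and the median of -0.39 over all ranked features. Of 17 CC chemokines 13 were ranked, with a median of -0.32, and 1, Ccl9 (6.41 and 6.16), stood among the highest 1000. Ccl6 (5.33 and 5.21), Ccl4 (4.15 and 3.99), Ccl3 (3.99 and 3.94) and Ccl5 (3.71 and 3.62) followed, while the monocyte attractant Ccl2 measured 0.48 and 0.31. Ccl11, Ccl20, Ccl22 and Ccl28 were not well above background. The CXC chemokine list of 14 genes takes in Cx3cl1, a CX3C chemokine gene. Of the 14, 11 were ranked, with a median of -1.13, which is the level of Cx3cl1 itself. Among those whose chosen probe held no repeated word, the brightest was Pf4 (6.06 and 5.88), also a platelet gene. Cxcl16 (3.99 and 3.76) and Cxcl10 (3.36 and 3.38) followed it. The chosen probe of Cxcl11 held such a word, and its other probe, without one, lay between Pf4 and Cxcl16 on both arrays. The neutrophil attractant Cxcl1 measured -4.01 and -4.43, and Cxcl3 was not well above background. Of 17 chemoattractant and chemokine receptors 15 were ranked, with a median of 1.37, led by the complement receptors C3ar1 (4.37 and 4.69) and C5ar1 (3.80 and 3.69). The list of proteases, inhibitors and other secreted proteins had 30 of 31 ranked and a median of 1.55. Cst3, which codes for the cathepsin inhibitor cystatin C, measured 8.06 and 7.96 and Lyz1 7.59 and 7.69, while the matrix protease gene Mmp2 measured -4.78 and -4.35. Of 23 galectin, annexin and S100 genes 22 were ranked, with a median of 4.41, among them Anxa5 (7.44 and 7.49), Lgals1 (7.28 and 7.19) and Anxa1 (7.25 and 7.22).

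The activation lists had shares ranked and medians somewhat above those of all genes (69.2% and -0.39). Neither had a member among the highest 1000, which for lists of this size is near the 4.29% of ranked features that lie there. Of 23 classical activation genes, the genes that LPS is known to raise, 18 were ranked, with a median of 0.54. Cd80 (3.44 and 3.54), a costimulatory ligand, was the highest, Tnf measured 1.26 and 1.17, and Il12a, Il12b, Il1a, Il23a and Il6 were not well above background on either array. Of 20 alternative activation genes, which IL-4 is known to raise, 16 were ranked, with a median of 0.30. Mgl2 led with 5.80 and 5.85, from a probe with a repeated word, then Mrc1, Tgm2 (4.86 and 4.84, a transglutaminase) and Clec10a (4.77 and 4.64, a lectin). Chil3 measured 2.50 and 2.39, and Arg1, Retnla and Ccl22 were not well above background. All 33 interferon response genes were ranked, with a median of 3.36. Ifi27l2a (6.64 and 6.30), Ifitm3 (6.50 and 6.42, an inhibitor of virus entry) and Oas1a (6.24 and 6.13, a sensor of double-stranded RNA) were the highest.

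The genes of basic cell function filled much of the upper range. All 79 cytosolic ribosomal protein genes on the array were ranked, with a median of 7.63, 15 among the highest 100 and 77 among the highest 1000. They ran from Rpl10 (9.21 and 9.19) to Rps27l (5.59 and 5.25). All 20 genes of the translation factor list were ranked, with a median of 6.01. Its 2 members among the highest 100, Tpt1 and Rack1 (8.46 and 8.38), are not translation factors in the strict sense. Eef1a1 (8.26 and 8.15) followed them. The 30 genes of the actin cytoskeleton, all ranked, had a median of 6.34, with Arpc2 (8.03 and 8.06) of the branching complex and Capg (7.97 and 7.92) of filament capping behind the actins. All 19 glycolysis genes were ranked, with a median of 5.38, led by Aldoa (8.30 and 8.33), Gapdh (8.29 and 8.23) and the hexokinase gene Hk1 (7.61 and 7.40). The 36 respiratory chain subunits, all ranked, had a median of 5.24, with Cox6a1 highest (7.89 and 7.89). All 26 antioxidant genes (median 4.66) and all 28 proteasome subunits (median 4.61) were ranked, Prdx1 leading the antioxidant genes with 7.84 and 7.65 and Psmb6 the proteasome with 6.45 and 6.24. The 32 cell cycle genes were all ranked but had a median of -0.37. Pcna, the DNA polymerase clamp, measured 6.09 and 6.04, and the mitotic genes Aurkb (-4.24 and -4.84), Kif11 and Bub1 were the lowest.

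Markers of other cells were searched for among 17 further lists, of which the tissue macrophage list is given above. Every monocyte marker on the array (7 of 7) was ranked, with a median of 1.37 and F13a1 (4.54 and 4.60) highest. Of 13 neutrophil markers 12 were ranked (median 0.09), led by Csf3r (7.33 and 7.32), the G-CSF receptor gene, while Ly6g measured -2.45 and -2.65 and Prtn3 -4.27 and -4.19. Of 9 dendritic cell markers 8 were ranked (median -3.16). Siglech, at 7.71 and 7.83, was measured by a probe with a repeated word, Zbtb46 measured -3.46 and -3.54, and Xcr1 was not well above background. All 7 megakaryocyte markers were ranked (median -2.24), with Pf4 and Vwf (3.81 and 4.02) far above Itga2b (-5.05 and -5.14) and Gp9 (-5.05 and -5.57). Osteoclast markers were ranked in 7 of 9 cases (median 0.32), Atp6v0d2 (2.97 and 2.76) highest and Calcr not well above background. Of 10 stem and progenitor markers 8 were ranked (median -2.58), with Ly6a highest (1.19 and 1.25) and Gata2 and Mycn not well above background.

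The remaining lists were smaller or mostly dim. They were ranked in 4 of 10 cases for mast cells and basophils, 4 of 5 for eosinophils, 5 of 8 for B cells, 3 of 8 for T cells, 3 of 7 for NK cells, 4 of 8 for erythroid cells, 2 of 6 for adipocytes, 6 of 13 for endothelium, 7 of 12 for fibroblasts and stroma and 1 of 8 for mesothelium and epithelium. Defining genes of each that were not well above background on either array included Cpa3 and Fcer1a (mast cells), Epx (eosinophils), Ms4a1 and Ebf1 (B cells), Cd3d and Cd3g (T cells), Ncr1 (NK cells), Klf1 and Alas2 (erythroid), Adipoq (adipocytes), Tek and Tie1 (endothelium), Dcn and Lum (stroma), and Msln and Epcam (mesothelium and epithelium). Their brightest members were Cd4 (3.44 and 3.51), Nkg7 (3.13 and 3.45), Kdr (4.25 and 4.43) and Fabp4 (4.92 and 4.61). Summed over its members, the macrophage list reached 11.32 and 11.31 on the log2 scale. The next were neutrophil (7.77 and 7.71), dendritic cell (7.74 and 7.86) and megakaryocyte (6.34 and 6.24). Each of these 3 sums came mostly from 1 gene, Csf3r, Siglech and Pf4 in that order, and their other members lay well below it. The part of other cells in any level given here was not tested.

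Long intergenic RNAs held 3 of the highest 100 places and 30 of the highest 1000. The brightest of them, at chr8:48476637-48492537 (plus strand, mm9), averaged 8.95 over both arrays, while the next of its 5 probes averaged -2.33. That at chr19:5801802-5802597 (minus strand) measured 8.65 and 9.03, and its other probes averaged 7.63 and 6.98. The file gives neither a gene name. COX1, which RefSeq lists on the mitochondrial genome, measured 9.21 and 8.25, the largest gap between the arrays among the highest 1000. Laptm5, a lysosomal membrane protein gene of blood cells (5.87 and 6.56), ENSMUST00000072779 (7.86 and 7.38), Arpc3 (6.71 and 6.25), Gm5963 (7.30 and 6.85) and Lipa, the lysosomal acid lipase gene (6.04 and 6.47), came next.

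The control arrays were the dimmest of the study. Their 75th percentiles were 495 and 482 intensity units, and the highest was 839, on a colony cell array. The share of spots well above background was 62.4% to 67.5%, apart from LPS replicate 2 with 72.2%, which also had 105 uneven spots, against 0 to 5 elsewhere. No spot was saturated, median signals were 28.1 to 55.1 intensity units over a local background of 17 to 21, and the number of arrays limits the precision.

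How far the resting levels were shared was described for the brightest features without a test, since they were chosen on the control arrays. Of the highest 100, 90 were also among the highest 100 in IL-4 macrophages, 33 in LPS macrophages and 64 in colony cells. Over the highest 1000 the numbers were 918, 743 and 747. In LPS macrophages 42 of the highest 100 places were held by probes with GT runs, described next, against 4 in control. The median level of the control's highest 100 was 8.74 in control macrophages, 8.60 in IL-4, 8.30 in LPS and 7.99 in colony cells. The subtracted 75th percentiles rose in the same order of groups. They were 495 and 482 intensity units in control, 617 and 539 in IL-4, 799 and 624 in LPS, and 817 and 839 in colony cells. A lower level is therefore not by itself a dimmer signal, and the share due to this scaling was not tested. Apoe averaged 9.73 in control macrophages, against 9.35, 8.89 and 5.92 in the same order of groups. Selenop averaged 8.80 in control, against 8.25, 6.58 and 4.87. Mpeg1 averaged 9.01 in control, against 8.57, 8.34 and 4.93. Ppia was the most even of the 4 genes chosen here after their values were seen, at 8.86 in control, against 8.86, 8.82 and 8.31.

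Probes with a GT run of at least 20 bases were singled out after their values were known, and are described without a test. Of the 52 ranked ones, the median was 7.41 and 7.45 on the control arrays, against 7.66 and 7.89 with IL-4, 8.76 and 9.13 with LPS and 5.12 and 5.16 in colony cells. The 417 with other repeated words had medians of 2.69 and 2.69 in control, 2.72 and 2.64 with IL-4, 2.27 and 2.22 with LPS and 2.36 and 2.42 in colony cells. GT runs took 4 of the highest 100 places in control macrophages, 8 in IL-4, 42 in LPS and 0 in colony cells. Without them the repeated probes took 23, 23, 20 and 22 places. LPS replicate 2 had the highest GT median, and LPS replicate 1 also lay above all 6 arrays of the other groups. What raised these probes was not tested.

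Members of the lists were compared between control macrophages and each other group with limma, at an adjusted p under 0.05 over all 26504 genes tested. Against IL-4, 19.1% of all genes were called (9.19% higher and 9.87% lower in control). These 5052 calls became 2171 or 2005 when the first or the second IL-4 array was dropped, and 3084 when control replicate 2 was. Against LPS it was 54.7% (25.8% higher and 28.9% lower), and against colony cells 71.4% (46.7% higher and 24.7% lower). Without LPS replicate 2 the LPS calls numbered 13125, against 14488 with it. All 3 comparisons share the control arrays, so their results are not independent. Differences below are control minus the other group, on the log2 scale. Each comes with the standard error of the limma fit, whose spread is pooled over all 4 groups of 2 arrays. The median over all genes was 0.01 against IL-4, -0.07 against LPS and 0.36 against colony cells, so list medians for colony cells are also given relative to that shift. Counts and medians are over members well above background on all 4 arrays of a comparison, since a member dim in 1 group enters only through the other, where it is high.

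Most genes of each activation list were called against the matching stimulus. Of 18 classical genes measured in both groups, 16 were lower in control than in LPS macrophages and 2 higher, with a median of -5.99. Another 4 were not well above background on either control array. Il6 was at least 1282-fold lower in control macrophages, and Nos2, the inducible nitric oxide synthase gene, measured 0.24 and 0.04 in control, against 5.10 and 5.24 with LPS (-5.03 ± 0.10, adjusted p = 2.6e-06). Tnf measured 1.26 and 1.17 in control, against 6.11 and 5.95 with LPS (-4.82 ± 0.09). Of 16 alternative genes measured in both groups, 11 were lower in control than with IL-4 and 3 higher, with a median of -1.86. Another 3 were on neither control array above background. Retnla was at least 39654-fold lower and Arg1 at least 444-fold lower than with IL-4. Chil3 measured 2.50 and 2.39 in control, against 6.34 and 6.41 with IL-4 (-3.93 ± 0.08), and its probe may also bind its paralog Chil4. A fold given as "at least" sets the brighter group against the lowest signal well above background on the dim arrays, or the gene's own where that was higher.

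Interferon response genes were measured in control macrophages between the other macrophages. All 33 were lower than with LPS (median -2.57), and 32 were higher and 1 lower than with IL-4 (median 1.29). Oasl1 was higher in control than with IL-4 by 3.50 ± 0.09 and lower than with LPS by 5.46 on the log2 scale. Class II genes ran the other way against IL-4: of 10 tested, 8 were lower in control than with IL-4 and 1 higher, with a median of -1.53, and Cd74 measured 5.08 and 5.22 in control, against 7.21 and 7.24. All 13 class I genes were lower in control than with LPS, with a median of -1.37. Of 79 ribosomal protein genes 67 were higher in control than with LPS (median 0.54). Summed markers of other cells also differed between these groups. Mast cell and basophil markers summed to -0.10 and -0.38 in control, against 3.12 and 3.22 with LPS. Stem and progenitor markers summed to 2.09 and 2.15 in control, against 6.18 and 6.27. Single members did not all move that way. Of 4 mast cell and basophil markers measured in both groups, 2 were called higher and 2 lower in control. Another 6 were not well above background on either control array. Of 8 stem and progenitor markers measured in both, 4 were called higher and 3 lower, with a median of 0.67. The part of other cells in the LPS results was not tested.

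**Figure D5:**
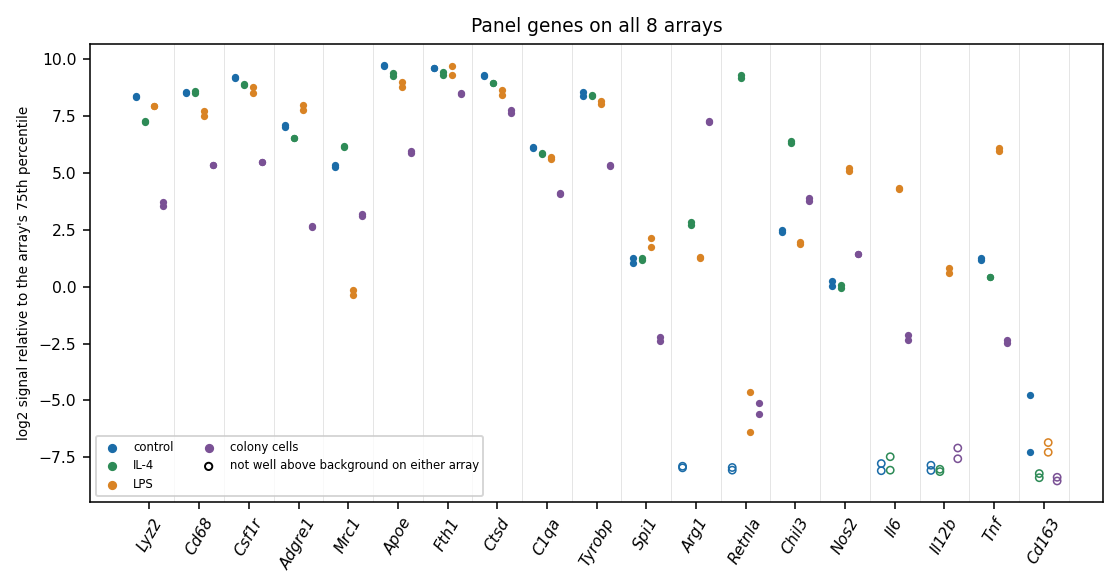
Levels of 19 panel genes on every array in the 4 groups, in log2 signal relative to the array's 75th percentile, open symbols where the gene was not well above background on either array of the group. Il6 and Il12b are open in control, IL-4 and, for Il12b, colony cells, and Arg1 is open in control macrophages only.

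Colony cells differed in most of the macrophage genes. In bulk samples fewer cells of a type and less RNA per cell cannot be told apart, and substrate and medium differed together. Of 15 macrophage markers 13 were higher in control macrophages and 2 lower, with a median of 3.41 (3.05 relative to all genes), and their summed level was 11.32 and 11.31 in control, against 7.81 and 7.85 in colony cells. Adgre1 measured 7.02 and 7.11 in control, against 2.64 and 2.67 (4.41 ± 0.09), and Aif1 was higher by 8.06 ± 0.09. All 20 toll-like receptor and adaptor genes measured in both groups were higher in control, with a median of 1.99 (1.63 relative to all genes). So were all 9 class II genes, with a median of 2.42 (2.06 relative). Of 41 lysosomal hydrolases and membrane proteins 33 were higher and 5 lower (median 1.29, or 0.93 relative), and of 28 lipid genes 23 were higher and 3 lower (median 2.40, or 2.04 relative). Of 32 cell cycle genes 28 were lower in control and 3 higher, with a median of -2.87 (-3.23 relative). Arg1 was at least 10049-fold lower in control macrophages.

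Markers of other cells moved with that comparison. Stromal markers summed to 2.40 and 2.70 in control, against 8.70 and 8.66 in colony cells, with 7 of 12 ranked in control. The sums include 5 members not well above background on either control array. Of the 7 measured in both groups, 2 were called higher and 5 lower in control, with a median of -7.03 (-7.39 relative to all genes). Of the 8 mesothelial and epithelial markers 1 was ranked in control macrophages, so that their sum there has no more than a bound, while it was 8.54 and 8.48 in colony cells. Dcn, a stromal proteoglycan gene, was at least 8824-fold lower in control, and Msln, the mesothelin gene, at least 12432-fold lower. Mast cell and basophil markers summed to -0.10 and -0.38 in control, against 2.91 and 2.91 in colony cells, and stem and progenitor markers to 2.09 and 2.15, against 5.51 and 5.53. Only 4 of the 10 mast cell and basophil markers were ranked in control, and the other 6 were not well above background on either control array. Of the 4, measured in both groups, 0 were called higher and 3 lower in control. Of 8 stem and progenitor markers measured in both groups, 1 was called higher and 3 lower, with a median of -0.22 (-0.57 relative to all genes). The endothelial sum was 4.48 and 4.65 in control, against 4.43 and 4.44. In control 6 of 13 endothelial markers were ranked, and Kdr alone measured 4.25 and 4.43. Of 5 measured in both groups, 3 were called higher and 1 lower in control, so near-equal sums do not mean equal members. The part of other cells in the differences was not tested.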

How the data were processed

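Total RNA of 8 samples was measured on 1-colour arrays with Cy3. The spot signals are in intensity units and, per the file headers, were made with Agilent Feature Extraction 10.7.3.1 on build mm9, with spatial and multiplicative detrending on, local background correction off, and no scaling between arrays. Other deposited columns are flags of the scanner software (0 or 1 per spot). The deposited value table is on the log2 scale: each column is the log2 signal less a single offset for that array. Its column medians were 2.89 and 2.96 for control macrophages. They were 2.93 and 2.93 for IL-4 macrophages, 2.87 and 2.53 for LPS macrophages, and 2.91 and 2.88 for the colony cells. The origin of the offset, and how 34119 probes were kept, are not given in the sources used here. The submitters' processing notes name Partek 6.4 and RMA but give neither a step. Slide 1 and scan 1 held every array.

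Control spots were dropped, as were uneven and outlying ones, log2 signals were set relative to their array's 75th percentile, and spots of a probe were averaged. Probe names came from RefSeq's table by transcript (26762 probes), symbol (3819) or unique synonym (639), 16194 stayed long intergenic RNAs and 8267 kept the file's name. For tests, 39411 probes that passed the background flag on both arrays of 1 or more groups gave 26504 genes, 36 of them with a missing value on at least 1 array. They were fitted in limma 3.58.1 (R 4.3.3) as 4 group means over 8 arrays, with 1.57 prior degrees of freedom. An exact permutation test of 2 against 2 cannot go below p = 0.333. In simulated data over 26468 genes, 200 were changed. Of log2 changes of 1, 55% to 56% were called, and of log2 changes of 2, 78% to 80%. There were 6 to 10 false calls per comparison. The real comparisons called 5052 genes or more, so the adjusted cut differs and these shares may not hold for them. The members, the lists and the rule for naming genes were chosen with earlier results of these data known: the 40 brightest symbols, up to 6 highest, 3 lowest and 6 dim members per list, up to 4 called members per list and comparison, 6 genes with the largest gap between control arrays, and a panel of 19. Alternatives changed the background correction, scaling, probe choice, filters, fit and left-out arrays.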

Additional observations from a re-analysis of the deposited data

How the results depend on the processing

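Membership of the brightest features was compared across settings. Of the highest 100 features, 89 stayed there with normexp background correction, 95 and 96 with 1 control array left out, and 100 with quantile normalization, the deposited table, the brightest probe by control level, a looser or no filter on dim probes, or the uneven spots kept. With the median over a gene's ranked probes 67 stayed and 20 of the 40 named genes did, and without probes that hold repeated words, chosen after seeing the data, 73 stayed and 23 of the 40 did. List members among the highest 1000 numbered 202 to 214 over all settings, against 206. Against IL-4, the 5052 calls became 2668 with the median of each array in place of the 75th percentile, 2832 with the deposited table, 3302 with only the 2 groups compared, and 2005 to 3703 with 1 array left out (2005 when IL-4 replicate 2 was dropped, 2171 for IL-4 replicate 1 and 3084 for control replicate 2). The LPS calls stayed between 11185 and 15002, but 47.2% were higher in control, against 57.6% with normexp (8459 higher, 6237 lower), 60.2% with the median (7473 and 4941) and 61.7% with the deposited table (7402 and 4587). All-gene medians against LPS moved to between 0.06 and 0.15 under those settings and quantile normalization. The colony cell calls stayed between 16469 and 21421. Of 7186 alternatives of 500 named results 6933 kept their direction and call, and 246, from 59 results, lost the call. All 500 were called in the main fit, and those picked per list had the largest changes, so a high share was built in. The call was lost under 1 or more alternatives for 28 of 141 results against IL-4, 22 of 169 against LPS and 9 of 190 against colony cells. With normexp the sign turned for Prss34 (0.055) and Retnla (0.10) against LPS, and for Ahsp (0.35), Eomes (0.25), Il12b (0.56) and Retnla (0.29) against colony cells, and with quantile normalization for Tpt1 against colony cells (-0.16). The cause was not tested. The labels give the groups the same replicate numbers, but same-numbered arrays did not deviate together (correlations of -0.16 to 0.05), and a replicate block gave 3865, 13713 and 18542 calls against IL-4, LPS and colony cells. With the numbers of the colony cells crossed, a choice made after seeing the data, 18593 were called.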

Other observations

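Features with only a file name held 24 of the highest 100 places and 403 of the highest 1000, beside the long intergenic RNAs. The median GC content of the probes was 43.3% for the highest 100 and for all ranked features. Among the 40 named genes, Slc10a1, a bile acid transporter gene of the liver, measured 9.58 and 9.61 with a probe that holds repeated words, while its other probe was not well above background on either control array. It averaged 9.40 with IL-4, 9.01 with LPS and 8.86 in colony cells. Whether such probes can be read as their gene in any group was not tested.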
